A study of Arabidopsis thaliana with 28 samples.

Results

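The genes described here are the 48 nuclear genes of Arabidopsis thaliana that encode proteins of the photosynthetic light reactions. They comprise the light-harvesting antenna proteins of both photosystems (LHCB and LHCA), the nuclear-encoded subunits of photosystem I (PSA) and photosystem II (PSB), the Rieske protein PETC and the plastocyanins PETE1 and PETE2, and the ATP synthase subunits ATPC1 and ATPD. They were chosen by locus identifier and not by a rule on measured values, but earlier results of these data were known. They are 48 of the 27444 protein-coding genes on chromosomes 1 to 5. A gene was scored as carrying a domain in a library when a called H3K9ac domain overlapped its annotated span by 1 bp or more. Gene spans are given in TAIR10 coordinates, 1-based.

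Acetylation of lysine 9 on histone H3 (H3K9ac) marks the first nucleosomes of transcribed genes. The antenna proteins hold chlorophyll and pass absorbed light energy to the reaction centers of photosystem II and photosystem I. Plastocyanin and the cytochrome b6f complex, to which PETC belongs, carry electrons between both photosystems, and the ATP synthase makes ATP from the resulting proton gradient. The reaction-center cores are encoded in the plastid, whereas the genes below are nuclear, are mostly strongly expressed in green tissue and respond to light.

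H3K9ac was profiled in whole seedlings of the accession Col-0, aged 10 days, with no mutation, transgene or treatment in any group. The method was chromatin immunoprecipitation (ChIP) in all groups but CUT&Tag. There were 28 libraries in 14 groups of 2. In 12 groups the PHILO procedure, a ChIP method for many small plant samples, was used: 5 groups were labelled by depth (0.5M, 1M, 2M, 5M and 10M reads), 3 by the number of PCR cycles (10, 12 and 14), 1 by 1 mg of tissue and 3 by nuclei number (500K, 100K and 20K nuclei). The remaining groups were eChIP (enhanced ChIP) and CUT&Tag, in which an antibody guides a transposase that cuts and tags the marked chromatin. The labels do not say whether replicates came from separate plant pools, so p-values measure only the spread between these libraries. In whole seedlings, fewer cells with the mark and less of the mark per cell cannot be told apart. No label names a batch, so a batch cannot be told apart from a group.

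Values were taken from called domains only. The ChIP reads in domains ranged from 207252 to 7244180 per library, and depths recovered from the files ranged from 3.24% to 105% of the mean of the 10M libraries. Enrichment below is the ChIP count over the IgG count in the domains of a gene, corrected for library size, where IgG is a precipitation with an unspecific antibody. All libraries share the same IgG control, so eChIP and CUT&Tag have no control separate from that of PHILO. The lowest ChIP count of any member with a domain was 9 in a 0.5M library and 240 in the 10M libraries, and PCR copies could not be removed from these counts by a molecular identifier, so any precision set by their size covers counting alone. As a check of the label whole seedling, the leaf markers RBCS1A and RCA carried a domain in both 10M libraries (2 of 2). So did 2 of 4 root markers (SCR and SHR), whereas the root markers CASP1 and PHO1 did not. Among seed markers 0 of 4 did, and among flower markers 0 of 3.

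Promoter sequences are shown for 5 members around which the results turn: the 3 neighboring LHCB1 genes, whose common domain was split or lost in some groups, and ATPD and LHCB6, the members with the highest median enrichment. Each sequence holds the 150 bases before the annotated start, 5′ to 3′ on the strand of the gene, read from the RefSeq TAIR10.1 assembly, which carries the nuclear sequence of TAIR10. Capitals mark the motifs that were searched on both strands: the CCAAT box (CCAAT), the G-box (CACGTG), the I-box (GATAAG) and the TATA box (TATAAA). The windows lie at chr1:10475970-10476119 on the minus strand for LHCB1.1, at chr1:10473503-10473652 on the minus strand for LHCB1.2, at chr1:10477735-10477884 on the plus strand for LHCB1.3, at chr1:5447881-5448030 on the minus strand for LHCB6 and at chr4:6100564-6100713 on the plus strand for ATPD.
LHCB1.1: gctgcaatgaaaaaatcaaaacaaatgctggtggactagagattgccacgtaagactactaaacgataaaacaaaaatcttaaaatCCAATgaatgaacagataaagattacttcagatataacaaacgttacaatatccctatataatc
LHCB1.2: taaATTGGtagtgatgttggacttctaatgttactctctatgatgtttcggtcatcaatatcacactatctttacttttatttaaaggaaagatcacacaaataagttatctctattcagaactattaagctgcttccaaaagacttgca
LHCB1.3: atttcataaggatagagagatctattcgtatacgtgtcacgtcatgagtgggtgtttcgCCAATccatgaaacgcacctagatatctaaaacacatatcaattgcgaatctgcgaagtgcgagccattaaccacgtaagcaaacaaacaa
LHCB6: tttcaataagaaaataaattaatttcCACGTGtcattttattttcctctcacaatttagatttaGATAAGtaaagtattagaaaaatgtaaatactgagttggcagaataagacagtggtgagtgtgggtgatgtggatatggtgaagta
ATPD: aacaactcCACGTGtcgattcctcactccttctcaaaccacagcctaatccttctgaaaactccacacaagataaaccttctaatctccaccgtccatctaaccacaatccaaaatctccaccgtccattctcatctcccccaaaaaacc
The LHCB1 windows each hold a CCAAT box, on the other strand (ATTGG) in LHCB1.2, and no G-box, LHCB6 holds a G-box and an I-box, and ATPD holds a G-box. In windows of this length, a G-box occurred in 10 of the 48 members (20.8%) and in 4.78% of the 27444 protein-coding genes. The CCAAT box occurred in 25 members (52.1%, against 31.8% of all genes), the I-box in 8 (16.7%, against 7.62%) and the TATA box in 18 (37.5%, against 34.0%). These counts describe letters in a window and were not related to binding by any factor.

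Nearly all light-reaction genes carried an H3K9ac domain in every kind of library. A domain was present in all 28 libraries for 41 of the 48 members, whereas 26.9% of protein-coding genes had one in all 28. In both 10M libraries every member carried a domain, against 62.4% of all genes. The same held for all 48 members at 5M (background 59.3%), 2M (56.1%), 10 cycles (55.2%), 12 cycles (56.1%), 14 cycles (57.2%), 100K nuclei (59.5%) and CUT&Tag (56.3%). At 1M, 47 members had a domain in both libraries (50.1%), with LHCB2.3 missing. At 0.5M there were 44 (31.2%), without LHCB1.2, LHCB1.4, LHCB2.3 and LHCB4.3. LHCB1.2 was the missing gene in the 1 mg group (47 members, 59.6%) and in the 500K nuclei group (47 members, 58.5%). In eChIP, 46 members had a domain in both libraries (59.0%), without LHCB1.1 and LHCB1.2. The 20K nuclei group had the fewest, with 41 members (43.9%), without LHCB1.1, LHCB1.2, LHCB1.4, LHCB1.5, LHCB2.3, LHCB4.3 and LHCA5. The 7 genes that lacked a domain anywhere were thus 5 genes of the major photosystem II antenna, the minor antenna gene LHCB4.3 and LHCA5, and no gene of a photosystem core, of the electron carriers or of the ATP synthase was among them.

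In the 10M libraries the domains over the members were wide and reached across the start site more often than those of other genes. The median domain width over a member was 3000 and 2800 bp, against 1200 bp over all genes with a domain. Among members, 97.9% had a domain at 500 bp after the start and 91.7% at 1000 bp, whereas over all genes with a domain these shares were 92.2% and 47.0%. The start site itself lay inside a domain for 76.0% of members and 47.0% of all such genes. A position 500 bp before the start was inside a domain for 67.7% of members and 25.7% of all genes with a domain. In the first 10M library 38 of the 48 members shared their domain with at least 1 other protein-coding gene, against 37.2% of all genes with a domain there, and the part of neighbors in the width was not tested. The remaining 10 members were alone under their domain. In CUT&Tag the start site was covered in 97.9% of members and 87.4% of all genes with a domain. The median width in CUT&Tag was 3100 and 4600 bp over members and 3000 and 4000 bp over all genes, so the difference in width was small there.

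**Figure D1:**
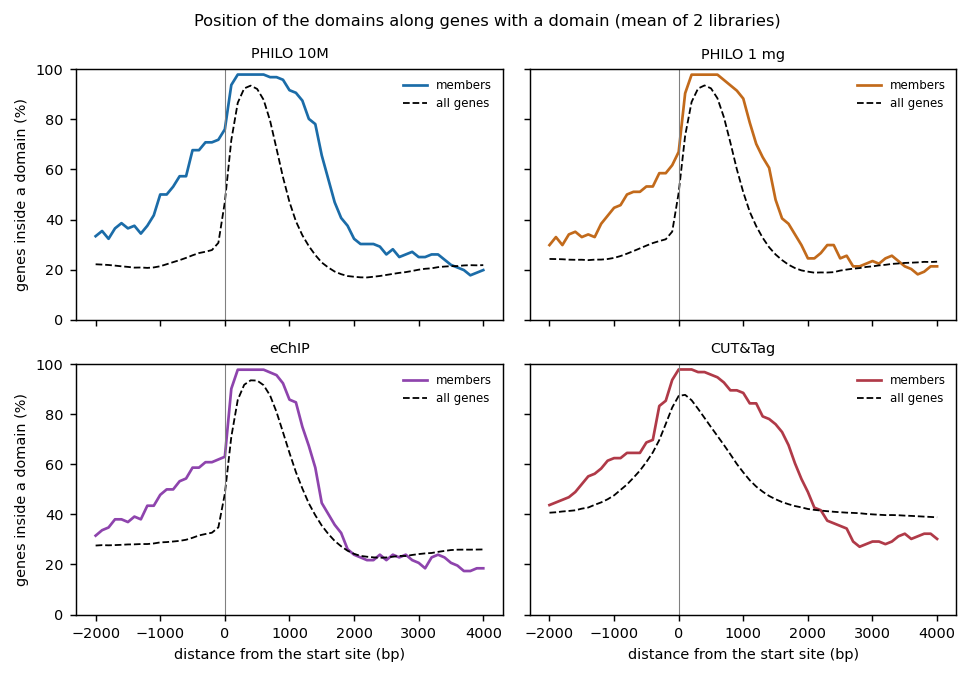
Percentage of genes inside a called H3K9ac domain (y axis) by distance from the annotated start site in bp (x axis), as the mean of 2 libraries, for the light-reaction genes (colored) and all protein-coding genes with a domain (dashed). At 1000 bp after the start, 91.7% of the members and 47.0% of all genes were inside a domain in the 10M libraries.

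Whether the members were more enriched than other genes with a domain differed between kinds of library. In the 10M libraries the median member enrichment was 5.01 and 5.07, against 4.37 and 4.23 for all genes with a domain. The ratio of the medians was 1.15 and 1.2 there, and it lay between 1.15 and 1.2 in the 12 libraries of 2M, 5M, 10M and the cycle series. It was 1.07 and 1.09 at 1M and 1.03 and 0.975 at 0.5M, where the median member had 45 and 28.5 ChIP reads. In 1 mg libraries the ratio was 1.00 and 0.955. It was 1.03 and 1.07 with 500K nuclei, 1.006 and 1.009 with 100K nuclei, and 0.976 and 1.00 with 20K nuclei. In eChIP it was 0.982 and 0.98, from medians of 2.96 and 3.02 for members and 3.02 and 3.08 for all genes. CUT&Tag had the highest ratios, 1.24 and 1.27, from member medians of 3.36 and 3.07 and gene medians of 2.72 and 2.43. Thus the ratios of CUT&Tag lay above, and those of 1 mg, eChIP and every nuclei group below, all ratios of the 12 libraries named. Depth was 45.8% to 91.7% of 10M in the 1 mg, nuclei and eChIP libraries and 3.24% to 105% in the depth and cycle series. The part of depth in these ratios was not tested.

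**Figure D2:**
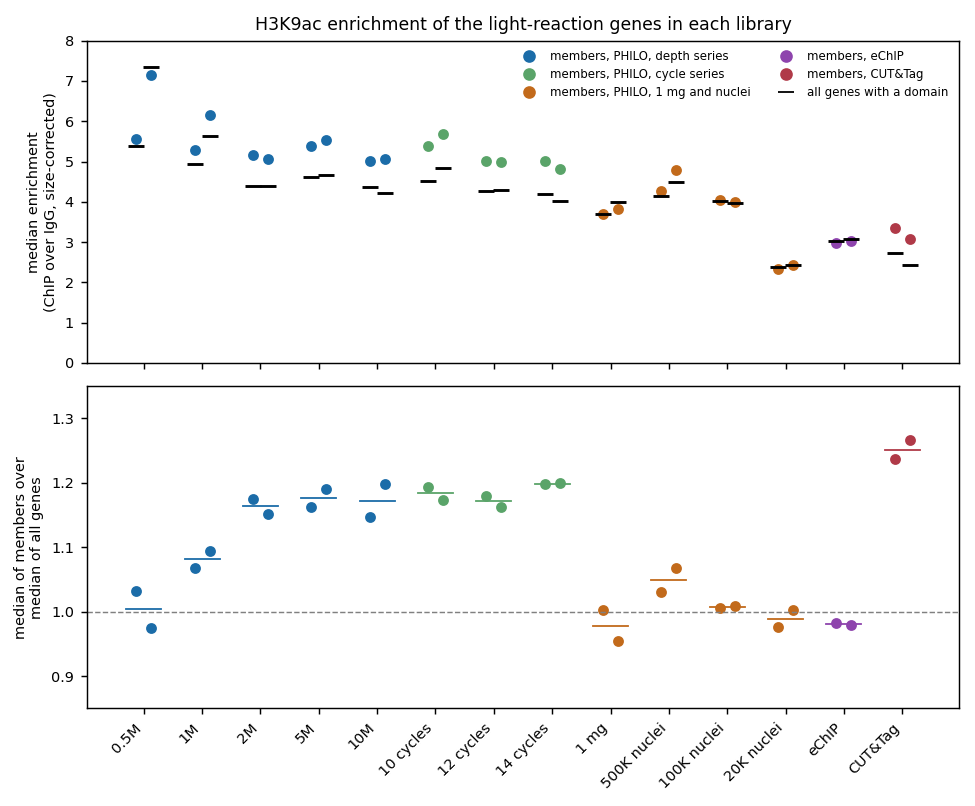
Median H3K9ac enrichment in each of 28 libraries (top, ChIP over IgG corrected for library size) for the light-reaction genes (points) and for all genes with a domain (black bars), and the ratio of both medians (bottom, lines for the group mean of 2 libraries). The ratio lies between 1.15 and 1.2 in the 2M, 5M, 10M and cycle libraries, between 0.955 and 1.07 in the 1 mg and nuclei libraries, and at 1.24 and 1.27 in CUT&Tag.

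The same order was seen gene by gene when the enrichment of each gene was divided by the gene median of its library. Relative enrichment was lower in both 1 mg libraries than in both 10M libraries for 30 of 47 members, against 27.0% of all genes, and higher for 2 (PSBQ1 and PETE2), against 27.3%. In eChIP it was lower for 33 of 46 members, against 27.8%, and higher for 3 (LHCB2.3, PSAF and PETE2), also against 27.8%. In CUT&Tag it was lower for 10 of 48 members (36.3%) and higher for 25 (36.0%). Without this division, enrichment was lower than in both 10M libraries in both 1 mg libraries for 37 of 47 members (47.4% of all genes), in both eChIP libraries for 43 of 46 (86.7%) and in both CUT&Tag libraries for 42 of 48 (85.5%). Most genes thus had lower undivided enrichment in eChIP and CUT&Tag, and lower values of single members there are to be read beside these shares. These 3 comparisons share the 10M libraries and are descriptions without a test, made after the values had been seen.

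The genes of the major photosystem II antenna are LHCB1, LHCB2 and LHCB3, the trimeric LHCII. This class had the lowest median enrichment of the 7 classes in each of the 12 PHILO groups and in eChIP. The class median was 3.48 ± 0.01 (SD, n = 2) in the 10M libraries, or 0.81 ± 0.02 of the gene median. In both 10M libraries it was the value of the single domain shared by LHCB1.1, LHCB1.2 and LHCB1.3. This SD is thus the spread of that domain alone. The class ratio to the gene median lay between 0.65 and 0.86 in the 13 groups other than CUT&Tag. In CUT&Tag it was 1.21 ± 0.06. Not every member of the class was low. LHCB3 had 5.45 and 4.86 in 10M, above the gene medians of 4.37 and 4.23. LHCB2.1 also lay above them, and the other members of the class lay below. In both 1 mg and both eChIP libraries LHCB3 was below the gene median. LHCB2.1 (AT2G05100, chromosome 2, 1822990 to 1824480, minus strand) had the highest median of the class over the 28 libraries. Here and below, the highest and lowest member of a class are those by median over the 28 libraries, with a missing domain counted as 0. The enrichment of LHCB2.1 was 6.70 and 5.49 in 10M, 2.48 and 3.85 in 1 mg, 2.80 and 3.0 in eChIP, and 3.26 and 3.06 in CUT&Tag. All values of the other 3 groups lay below both of 10M, also relative to the gene median. Over the 16 depth and cycle libraries LHCB2.1 ranged from 3.15 to 8.97 with a median of 5.54, and over the 8 libraries of 1 mg and nuclei from 1.79 to 4.70 with a median of 3.97. LHCB2.3 (AT3G27690, chromosome 3, 10255906 to 10257489, plus strand) had 3.29 and 3.09 in 10M, 4.21 and 2.62 in 1 mg, 3.84 and 3.52 in eChIP, and 3.96 and 3.27 in CUT&Tag. Its eChIP values thus lay above both 10M values, and those of 1 mg and CUT&Tag overlapped them. Its domains were 2000 bp wide in both 10M libraries and 800 bp in both eChIP libraries. LHCB2.3 had no domain in the first 0.5M library, the first 1M library or either 20K library.

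LHCB1.2 (AT1G29910, chromosome 1, 10472280 to 10473502, minus strand) had the lowest median of all 48 members when its missing domains counted as 0. Over the 20 libraries in which it had a domain its median was 3.10, against 3.09 for LHCB1.1 over 25. LHCB1.2 lies beside LHCB1.1 (AT1G29920, 10474656 to 10475969, minus strand) and LHCB1.3 (AT1G29930, 10477885 to 10479114, plus strand) in a cluster of 6835 bp. In all 12 libraries of 2M, 5M, 10M and the cycle series, 1 domain covered 98.2% to 100% of the cluster, so the 3 genes had the same enrichment there, 3.47 and 3.49 in 10M. In the 8 libraries of 1 mg and nuclei the domains covered 16.3% to 80.7% of the cluster and were split into up to 3. Both eChIP libraries had 1 domain, over LHCB1.3 alone, that covered 26.3% and 32.2%. CUT&Tag covered 86.5% and 100%, and the libraries of 0.5M and 1M 70.2% to 100%. LHCB1.3 carried a domain in all 28 libraries, LHCB1.1 in 25 and LHCB1.2 in 20. The enrichment of LHCB1.3 was 2.97 and 2.69 in 1 mg, 2.34 and 2.41 in eChIP, and 3.16 and 2.67 in CUT&Tag. LHCB1.1 had 1.79 and 2.50 in 1 mg and no domain in eChIP, and LHCB1.2 had no domain in either. The coding sequences of these copies were 95.7% to 96.4% identical. In each gene 10.7% to 20.5% of the windows of 50 bases occurred elsewhere in the genome, so the split of reads among the copies is uncertain. Such windows also made up 25.9% of LHCB2.2, 21.4% of LHCB2.1, 17.3% of LHCB1.5 and 13.7% of LHCB1.4. Their share was 7.92% in LHCA2 and 6.46% in PSBS. The read counts of these genes carry the same uncertainty.

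**Figure D3:**
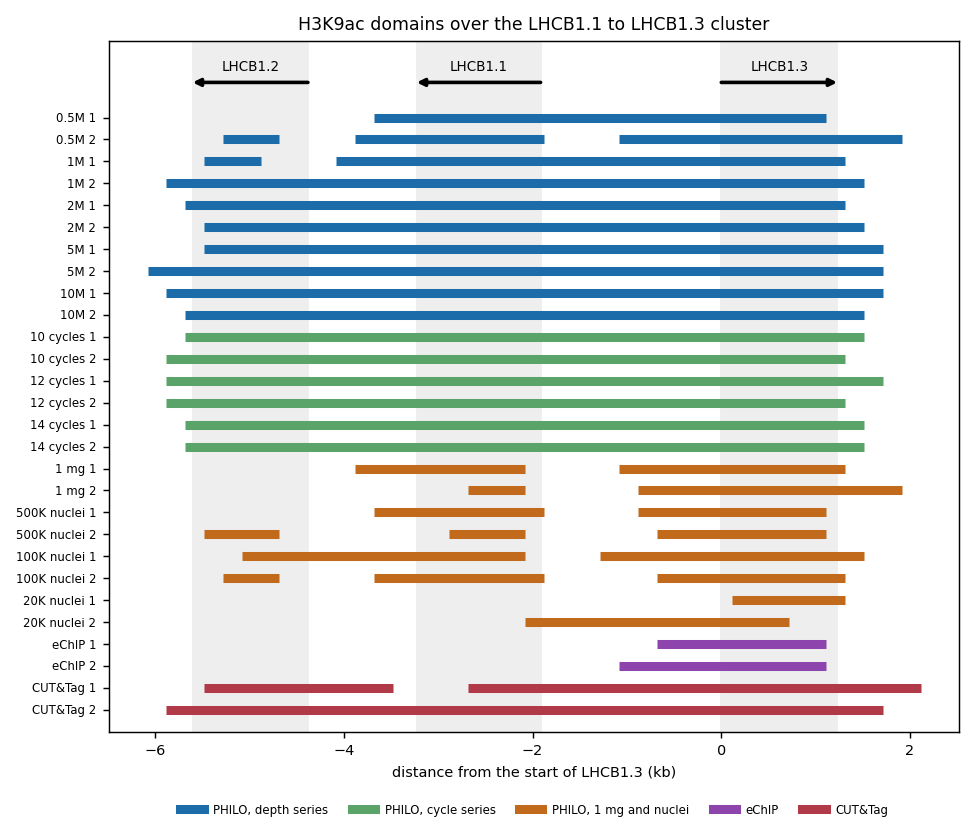
Called H3K9ac domains (bars) over the LHCB1.2, LHCB1.1 and LHCB1.3 genes (grey, arrows in the direction of transcription) in each of 28 libraries, by distance from the start of LHCB1.3 in kb. A single domain spans the cluster in all 2M, 5M, 10M and cycle libraries, whereas the eChIP domains lie over LHCB1.3 alone.

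The other LHCB1 pair, LHCB1.4 (AT2G34430, chromosome 2, 14524607 to 14525918, plus strand) and LHCB1.5 (AT2G34420, 14522524 to 14523568, minus strand), is transcribed from a shared intergenic region. Both genes lay under a common domain in the 10M libraries, with an enrichment of 3.59 and 3.27. The enrichment in eChIP was 1.76 and 2.01, and in CUT&Tag it was 2.61 and 3.03. In 1 mg, LHCB1.4 had 2.21 and 4.11 and LHCB1.5 had 2.21 and 3.41. Neither gene had a domain in the 20K libraries, and LHCB1.4 also had none in the second 0.5M library. The eChIP values lay below the 10M values in both libraries, while the 1 mg values overlapped them. Relative to the gene median, both genes were lower than in 10M in eChIP and higher in CUT&Tag.

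The minor antenna proteins (LHCB4, LHCB5 and LHCB6) link the major antenna to the photosystem II core, and LHCB7, a related protein, was counted with them. The median of these 6 genes was 4.89 ± 0.26 (SD, n = 2) in the 10M libraries, or 1.14 ± 0.09 of the gene median. LHCB6 (AT1G15820, chromosome 1, 5446462 to 5447880, minus strand) was highest, with 6.54 and 5.60 in 10M, 4.69 and 5.16 in 1 mg, 2.69 and 4.04 in eChIP, and 3.62 and 3.45 in CUT&Tag. Its values in the other 3 groups were below both 10M values, but relative to the gene median those of CUT&Tag overlapped them. Its domain was 5800 and 7600 bp wide in 10M and covered 3 other genes. LHCB4.3 (AT2G40100, chromosome 2, 16745628 to 16747424, plus strand) was lowest with its missing domains counted as 0. It had 4.2 and 3.74 in 10M, 3.88 and 3.13 in 1 mg, 2.31 and 2.61 in eChIP, and 2.65 and 2.68 in CUT&Tag. It had no domain in either 0.5M library or in the second 20K library. Over the libraries with a domain LHCB7 was lower, with a median of 3.46 over 28, against 3.54 for LHCB4.3 over 25. The domain of LHCB4.3 was 800 bp wide in both 10M libraries and 7200 and 7400 bp in CUT&Tag.

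The LHCA proteins form the antenna of photosystem I. Their median was 5.35 ± 0.01 (SD, n = 2) in 10M, 3.64 ± 0.13 in 1 mg, 2.91 ± 0.07 in eChIP and 3.38 ± 0.11 in CUT&Tag, or 1.24, 0.946, 0.955 and 1.32 of the gene median. LHCA2 (AT3G61470, chromosome 3, 22745514 to 22747444, plus strand) was highest, with 5.66 and 5.62 in 10M, 4.80 and 4.00 in 1 mg, 3.64 and 3.37 in eChIP, and 3.11 and 2.88 in CUT&Tag. LHCA6 (AT1G19150, chromosome 1, 6612630 to 6613972, plus strand), which helps to join photosystem I to the NDH complex, was lowest, with 3.84 and 5.26 in 10M, 3.60 and 3.67 in 1 mg, 2.28 and 2.68 in eChIP, and 3.02 and 3.18 in CUT&Tag. For both genes the values of the other 3 groups lay below those of 10M. Relative to the gene median, LHCA6 overlapped its 10M values in 1 mg and CUT&Tag, and LHCA2 in 1 mg. LHCA5 (AT1G45474, chromosome 1, 17179250 to 17180806, plus strand), also needed for this link, had 5.74 and 5.67 in 10M, 3.70 and 3.81 in 1 mg, 3.36 and 3.15 in eChIP, and 2.57 and 2.46 in CUT&Tag. LHCA5 stood alone under a domain of 1000 bp in both 10M libraries, and it had no domain in the first 20K library.

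The photosystem I subunits had a median of 5.44 ± 0.04 (SD, n = 2) in 10M, 4.06 ± 0.06 in 1 mg, 3.22 ± 0.12 in eChIP and 3.24 ± 0.09 in CUT&Tag. PSAD1 (AT4G02770, chromosome 4, 1229031 to 1230164, minus strand), a subunit of the ferredoxin docking site, was highest, with 6.11 and 6.61 in 10M, 3.81 and 4.88 in 1 mg, 3.71 and 3.32 in eChIP, and 3.35 and 3.22 in CUT&Tag. PSAE1 (AT4G28750, chromosome 4, 14202758 to 14204061, minus strand), a subunit of the same site, was lowest, with 3.98 and 3.99 in 10M, 2.82 and 3.04 in 1 mg, 2.57 and 2.64 in eChIP, and 2.68 and 2.50 in CUT&Tag. Both genes were below their 10M values in all of these groups. Relative to the gene median, PSAD1 was lower in all 3, whereas PSAE1 was lower in 1 mg and eChIP and higher in CUT&Tag. PSAE1 lay under a domain of 5600 bp that also covered 3 other genes, whereas the domain of PSAD1 was 1600 and 1400 bp wide in 10M.

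The photosystem II subunits had a median of 5.46 ± 0.10 (SD, n = 2) in 10M, 4.13 ± 0.26 in 1 mg, 3.29 ± 0.01 in eChIP and 3.26 ± 0.34 in CUT&Tag. PSBO2 (AT3G50820, chromosome 3, 18890874 to 18892508, minus strand), which encodes the manganese-stabilizing protein of the oxygen-evolving complex, was highest, with 6.34 and 6.2 in 10M, 4.42 and 4.68 in 1 mg, 3.64 and 3.68 in eChIP, and 3.69 and 3.04 in CUT&Tag. PSBP1 (AT1G06680, chromosome 1, 2047634 to 2049439, plus strand), another protein of that complex, was lowest, with 3.28 and 3.06 in 10M, 2.45 and 2.63 in 1 mg, 1.99 and 2.17 in eChIP, and 3.40 and 2.77 in CUT&Tag. Thus only the CUT&Tag values of PSBP1 overlapped its 10M values. Across the 28 libraries PSBP1 ranged from 1.74 to 5.84, and PSBO2 from 2.27 to 7.92.

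Among the electron carriers, PETE2 (AT1G20340, chromosome 1, 7042046 to 7043392, minus strand), the major plastocyanin, had 4.80 and 4.84 in 10M, 4.75 and 5.16 in 1 mg, 3.58 and 3.56 in eChIP, and 3.43 and 3.80 in CUT&Tag. Its 1 mg values therefore spanned those of 10M, unlike most members. The highest single value of any member, 24.0, was that of PETE2 in the second 0.5M library, and it rested on 36 ChIP and 44 IgG reads. PETC (AT4G03280, chromosome 4, 1440146 to 1441863, plus strand) had 5.63 and 4.47 in 10M, 3.28 and 3.57 in 1 mg, 3.06 and 2.92 in eChIP, and 3.13 and 3.14 in CUT&Tag. PETE1 (AT1G76100) had a domain of 3800 and 4200 bp in 10M and of 21600 and 24800 bp in CUT&Tag, the widest domain over any member.

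The ATP synthase genes held the highest member and a low one. ATPD (AT4G09650, chromosome 4, 6100714 to 6101864, plus strand), which encodes the delta subunit, had the highest median enrichment of the 48 members, with 6.87 and 8.35 in 10M, 7.02 and 7.33 in 1 mg, 4.11 and 5.41 in eChIP, and 2.78 and 3.84 in CUT&Tag. Its 1 mg values lay between those of 10M. ATPC1 (AT4G04640, chromosome 4, 2350498 to 2352025, minus strand), the gamma subunit, had 3.60 and 4.09 in 10M, 3.0 and 3.44 in 1 mg, 2.23 and 2.28 in eChIP, and 2.91 and 1.85 in CUT&Tag. ATPD had a domain of 1800 and 1400 bp in 10M and of 1600 bp in both CUT&Tag libraries, unlike the wide CUT&Tag domains of PETE1 and LHCB4.3.

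**Figure D4:**
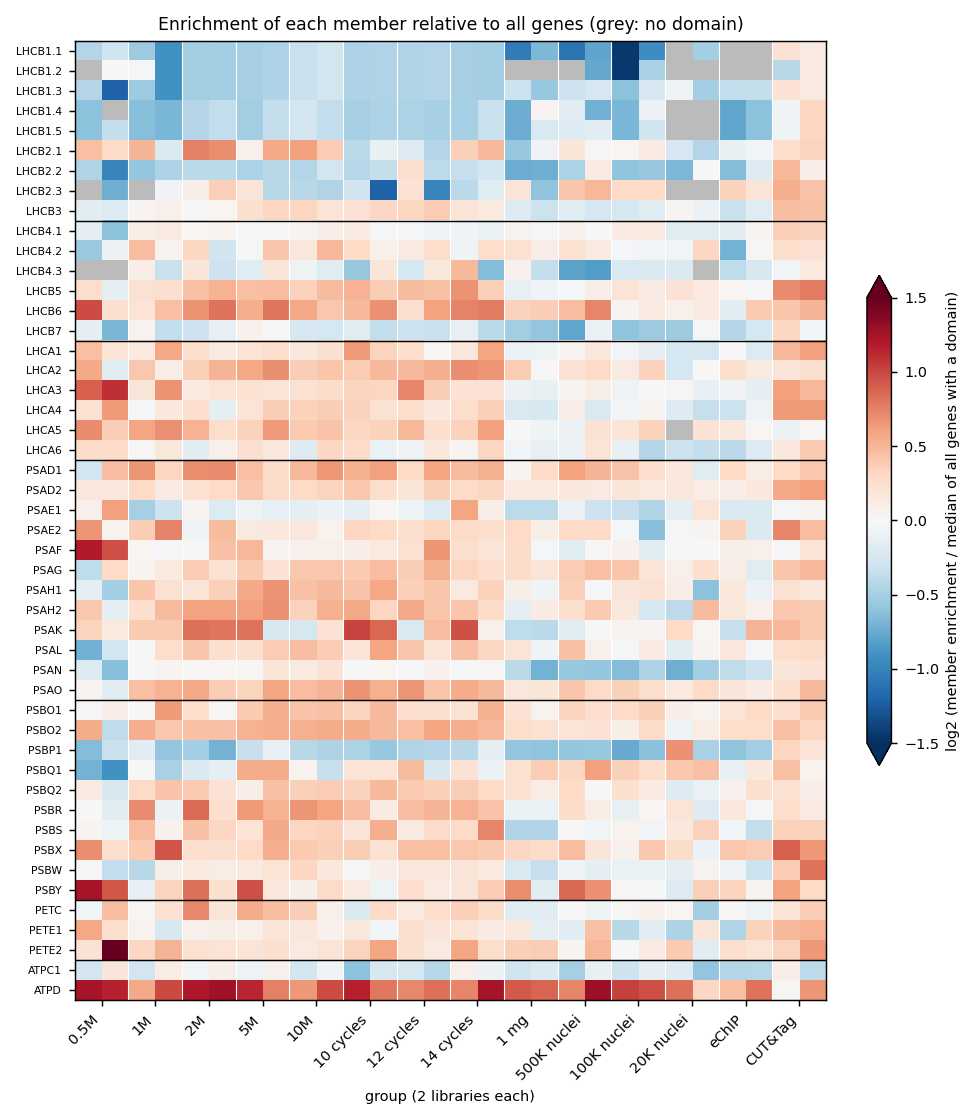
Enrichment of each of the 48 light-reaction genes (rows, by class) in each of 28 libraries (columns), as log2 of the ratio to the median of all genes with a domain in that library (grey, no domain). The color scale ends at -1.5 and 1.5. Outside CUT&Tag, the LHCB1 genes lie below the gene median wherever they have a domain, except LHCB1.4 in the second 1 mg library and LHCB1.2 in the second 0.5M library, where it equals the median, and ATPD lies above it in all 28 libraries.

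Differences in ChIP count were tested over merged regions with a domain in every library of a comparison, by the edgeR quasi-likelihood test with Benjamini-Hochberg adjustment over all such regions at 0.05. The members fell into up to 45 regions, because the LHCB1 neighbors shared theirs. A region's count sums the reads of its called domains, so it falls when less of the region is called as well as when fewer reads lie in it. Counts of single libraries are given as CPM, the region's reads scaled to the reads of that library in all tested regions. The comparisons of 1 mg, eChIP, CUT&Tag, 0.5M and 5M used the same 10M libraries as controls and are given side by side.

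With 1 mg of tissue, regions over light-reaction genes of every class had lower counts than with 10M. Of 45 member regions, 41 were lower (background 16.3% of 13224 regions) and 1, that of LHCB7, was higher (11.2%). The median log2 fold change was -0.39 over members and 0.01 over all regions. Lower were all 9 genes of the major antenna, in 6 regions, and 4 of 6 in the LHCB4 to LHCB7 class. So were all 6 LHCA genes, 10 of 12 PSA genes, all 10 PSB genes, all 3 carriers and both ATP synthase genes. LHCB1.2, without a domain in 1 mg, was counted through the region it shares with LHCB1.1 and LHCB1.3. Enrichment relative to the gene median was lower in 1 mg for 30 of 47 members, but higher for PSBQ1 and PETE2. The undivided enrichment of ATPD in 1 mg lay between its 10M values. The LHCB1.1 to LHCB1.3 region (chromosome 1, 10472001 to 10479800) had 285.8 and 279.6 CPM in 10M and 126 and 103.3 in 1 mg, a log2 fold change of -1.30 ± 0.08 (SE, adjusted p = 8.6e-06, edgeR). PSBS, which encodes the sensor of photoprotective energy dissipation, had 83.2 and 84.5 CPM in 10M and 36.3 and 47.2 in 1 mg (-1.02 ± 0.11, adjusted p = 0.000195, edgeR). LHCB2.2 had 93.8 and 89.0 in 10M and 47.4 and 44.3 in 1 mg (-1.0 ± 0.08, adjusted p = 4.99e-05, edgeR). In these 3 regions both 1 mg libraries lay below both 10M libraries. The covered length of the LHCB1 region was 7600 and 7200 bp in 10M and 4200 and 3400 bp in 1 mg. LHCB7 had 102.9 and 93.3 in 10M and 126 and 120 in 1 mg, and its covered length was 2400 and 2200 bp in 10M and 3600 and 3400 bp in 1 mg. With the covered length as an offset in the model, 2 of 45 member regions were lower (0.703% of all regions), and the LHCB1 region (-0.35) and LHCB2.2 (-0.33) did not pass. Of the 18 regions covered to at least 80% in every library 18 were lower, against 21.1% of all such regions. In the ChIP to IgG ratio tested by limma, 0 of 45 member regions passed (22 at an unadjusted p under 0.05), and 0 of all 13224 regions did.

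In eChIP, too, most member regions had lower counts than with 10M. Of 45 member regions, 39 were lower (background 16.0% of 12655 regions) and 1, LHCB7, was higher (11.7%), with a median log2 fold change of -0.56 over members and 0.01 over all regions. Lower were all 9 major antenna genes, in 6 regions, and 3 of 6 in the LHCB4 to LHCB7 class. So were 5 of 6 LHCA genes, 11 of 12 PSA genes, 9 of 10 PSB genes, all 3 carriers and both ATP synthase genes. LHCB1.1 and LHCB1.2, without a domain in eChIP, were counted through the region they share with LHCB1.3. Enrichment relative to the gene median was lower in eChIP for 33 of 46 members, but higher for LHCB2.3, PSAF and PETE2. The LHCB1.1 to LHCB1.3 region had 287.7 and 281.4 CPM in 10M and 57.3 and 68.2 in eChIP (-2.20 ± 0.09, adjusted p = 9.78e-05, edgeR). PSBS had 83.8 and 85.0 in 10M and 22.5 and 39.1 in eChIP (-1.46 ± 0.21, adjusted p = 0.00274, edgeR). LHCB2.3 had 55.5 and 58.1 in 10M and 28.8 and 25.1 in eChIP (-1.10 ± 0.12, adjusted p = 0.00121, edgeR). Both eChIP libraries lay below both 10M libraries in these regions. The covered length of the LHCB2.3 region was 2000 bp in both 10M libraries and 800 bp in both eChIP libraries, and its log2 fold change was 0.22 with the covered-length offset, under which the LHCB1 region (-0.32) did not pass. With that offset 20 of 45 member regions were lower (13.2% of all regions), and among the 15 regions covered to at least 80% in every library 13 were lower (24.6%). By limma on the ChIP to IgG ratio 0 of 45 passed, with 20 at an unadjusted p under 0.05. Without the first 10M library, 25 member regions were lower (6.69% of all regions).

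Member regions were also counted by whether they hold another protein-coding gene. Of the 9 member regions with only 1 coding gene, 8 were lower in 1 mg (15.4% of all such regions), with a median log2 fold change of -0.41, and 8 in eChIP (15.4%), with a median of -0.56. Of the 36 regions with 2 or more coding genes, 33 were lower in 1 mg (18.9%) and 31 in eChIP (16.9%).

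In CUT&Tag the members split. Of 45 member regions, 14 were lower (background 22.1% of 8228 regions) and 7 were higher (25.4%), with a median log2 fold change of -0.09 over members and -0.01 over all regions. Higher were LHCB4.1, LHCB4.3, LHCB7, LHCA1, LHCA6, PSBO1 and PETE1. Lower were PSBS, LHCA5, LHCB2.2, LHCB3, LHCB5, both ATP synthase genes, PSAD2, PSAG, PSAH1, PSAH2, PSAN, PSBQ1 and PSBY. Relative to the gene median, enrichment went the opposite way to the count for PSBO1, LHCB2.2, LHCB3, LHCB5, PSAD2, PSAG and PSBY. It went the same way for LHCB4.1, LHCB4.3, LHCB7, LHCA1, PETE1, LHCA5 and PSAH1, and the others overlapped their 10M values. PSBS had 91.6 and 92.9 CPM in 10M and 27.9 and 23.2 in CUT&Tag (-1.72 ± 0.16, adjusted p = 0.00167, edgeR). LHCA5 had 67.4 and 68.4 in 10M and 33.1 and 20.1 in CUT&Tag (-1.26 ± 0.25, adjusted p = 0.0108, edgeR). ATPD had 140.6 and 126.7 in 10M and 59.0 and 63.0 in CUT&Tag (-0.97 ± 0.12, adjusted p = 0.00284, edgeR). In these regions the libraries of both groups did not overlap, and the PSBS domain was 600 bp wide in both CUT&Tag libraries and 1600 bp in both 10M libraries. PSBS did not pass with the covered-length offset (-0.30) and had a log2 fold change of 0.10 by limma on the ChIP to IgG ratio. Among the higher regions, LHCB4.3 (0.83 ± 0.07) and LHCB7 (0.57 ± 0.11) lay under CUT&Tag domains that also held other genes. The balance of directions depended on the measure: limma on the ChIP to IgG ratio gave 14 higher and 0 lower (16.5% and 15.0% of all regions), the covered-length offset 0 higher and 18 lower (1.11% and 55.5%), and scaling by total count 2 higher and 20 lower (18.3% and 31.9%). Leaving out the first CUT&Tag library gave 33 calls (69.8% of all regions), and leaving out the first or the second 10M library gave 8 or 7 (20.3% and 20.8%).

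**Figure D5:**
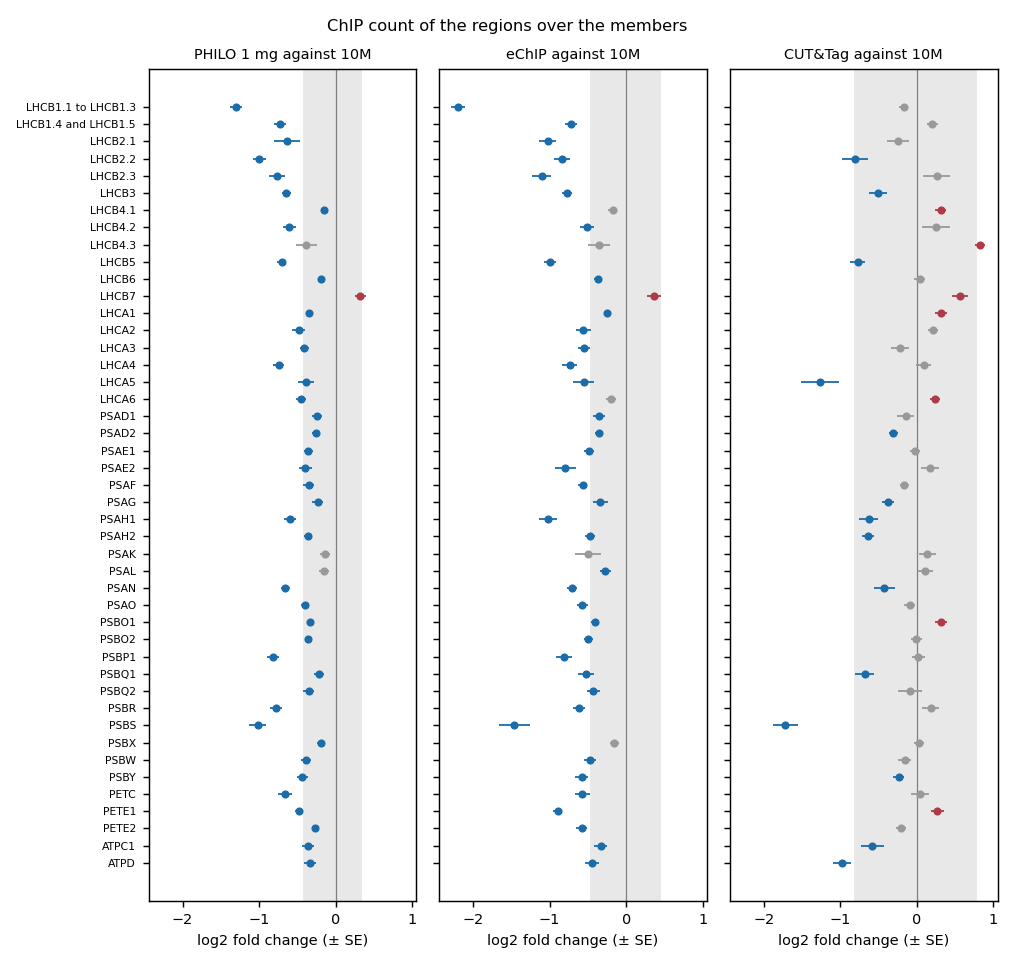
Log2 fold change of the ChIP count (points, with bars of 1 SE) of the regions over the light-reaction genes for PHILO 1 mg, eChIP and CUT&Tag against the same PHILO 10M libraries (2 libraries a group). Blue points were lower and red points higher past the edgeR threshold, grey points did not pass, and the grey band holds the range from the 10th to the 90th percentile of all regions tested. In 1 mg and eChIP 41 and 39 of 45 regions were lower, and in CUT&Tag 14 were lower and 7 higher.

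The amounts of sequencing, amplification and nuclei gave few or no calls among the members, and few among all regions. Between 5M and 10M, a comparison added after the data had been seen, 0 of 45 member regions passed in edgeR (5 at an unadjusted p under 0.05), against 0.0800% of all regions lower and 0.00% higher. DESeq2 also gave 0 calls there, with 3 at an unadjusted p under 0.05. The median log2 fold change between 5M and 10M was 0.005 over members and -0.001 over all regions. At 0.5M, 1 of 43 member regions was lower (background 1.95%) and 0 were higher (1.12%). That region was PSBX, a small photosystem II subunit, with 322.2 and 312.3 CPM in 10M and 220.8 and 138.9 at 0.5M (-0.81 ± 0.18, adjusted p = 0.0216, edgeR). It rested on 45 and 24 ChIP reads at 0.5M, and its covered length was 3600 bp in both 10M libraries and 1800 and 1200 bp at 0.5M. The call was lost when either 10M library or the second 0.5M library was left out. Its log2 fold change was 0.43 with the covered-length offset and 0.03 by limma on the ChIP to IgG ratio. LHCB2.3 and LHCB4.3 lacked a domain in at least 1 of the 4 libraries and were not tested. The median log2 fold change at 0.5M was -0.12 over members and 0.01 over all regions. Of 43 member regions, 13 lay above 0.

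Between 14 and 10 PCR cycles, 0 of 45 member regions passed in edgeR (background 0.00800% lower and 0.00% higher), with 4 at an unadjusted p under 0.05. DESeq2 also gave 0 calls, with 1 at an unadjusted p under 0.05. The median log2 fold change between the cycle groups was -0.02 over members and 0.002 over all regions. Between 20K and 500K nuclei, 0 of 42 member regions passed in edgeR (background 0.00% lower and 0.0537% higher), with 5 at an unadjusted p under 0.05. In DESeq2 0 passed, with 1 at an unadjusted p under 0.05. The median log2 fold change there was -0.15 over members and 0.004 over all regions, and 8 of 42 member regions lay above 0. The lowest p among members in that comparison was that of PSBR, a subunit of photosystem II, with a log2 fold change of -0.73 ± 0.18 (SE, adjusted p = 0.366, edgeR), which missed the threshold. LHCB1.2, LHCB1.4, LHCB1.5, LHCB2.3 and LHCA5 were not tested between the nuclei groups, because they lacked a domain in at least 1 of the 4 libraries. Leaving out the first or the second 20K library gave 4 lower member regions each (5.25% and 1.66% of all regions), and the fit then assumes that the remaining library varies like the other group.

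Other genes of photosynthesis were counted in the same way. Of 15 chlorophyll synthesis genes, 9 had a domain in all 28 libraries, and of 12 further genes of electron transport and photosystem assembly or regulation, 5 did, against 26.9% of all genes. The shares of all regions that were lower were 16.3% in 1 mg, 16.0% in eChIP, 22.1% in CUT&Tag and 1.95% at 0.5M, and 25.4% were higher in CUT&Tag. In 1 mg, 6 of 14 chlorophyll synthesis regions were lower and 0 higher, with the largest change in CHLH, a subunit of magnesium chelatase (log2 fold change -0.94 ± 0.10). Of the 12 other light-reaction regions 9 were lower and 0 higher, with the largest change in PGRL1A, a gene of cyclic electron flow (-0.83 ± 0.07). In eChIP 4 of 14 and 10 of 12 were lower and 0 higher, led by the methyltransferase gene CHLM (-0.70 ± 0.11) and the ferredoxin gene FD2 (-1.0 ± 0.16). In CUT&Tag, 2 chlorophyll synthesis regions were higher and 6 lower of 15, with the largest change in CHLI1 (-1.01 ± 0.29). Of 11 other light-reaction regions 5 were higher and 2 lower there, with the largest change in PSB28 (1.06 ± 0.15). At 0.5M, PORB (-1.17 ± 0.24) and FNR2 (-0.96 ± 0.16) were the regions of these lists that were lower, and 0 passed in the nuclei, cycle and 5M comparisons.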

How the data were processed

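H3K9ac was measured in 28 libraries of Col-0 seedlings, and 1 list of called domains was used per library. According to the methods, the authors aligned reads to TAIR10 with Bowtie2 and called domains with epic2 against IgG, and the submitters' processing notes list SICER 0.0.52 and deepTools 3.5.2. The deposited counts are whole ChIP reads and IgG reads per domain, without normalization. The deposited log2 values are the ratio of ChIP to IgG after scaling by library size, and the library-size ratio, and from it the relative depth, was recovered from them. The deposited p-values and their FDR come from the caller's test against IgG and served only as an alternative rule for presence. The deposited score is the caller's own value and was not used. Duplicate handling and window size are not given in the sources used here. Gene spans came from the RefSeq annotation of TAIR10.1, whose nuclear coordinates are those of TAIR10. The annotated span of PSBS reaches far upstream of its domain.

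Domains were assigned to 27444 protein-coding genes on an overlap of 1 bp. For tests, domains of the 4 libraries of a comparison were merged, and regions with a domain in every library were tested on summed ChIP counts with edgeR 4.0.16 (TMM, quasi-likelihood, Benjamini-Hochberg over all regions, 0.05), in R 4.3.3. The test was tried on simulated counts with a fixed spread between libraries. Called length did not vary in them, so the simulation does not cover changes in that length. Counts exist only inside called domains, so a sum moves with the length called. Alternatives were DESeq2 1.42.0, other scaling, filterByExpr, a covered-length offset, regions covered to at least 80%, limma 3.58.1 on log2 of ChIP over IgG, a replicate block, each library left out, and other rules for presence. The 5M libraries as controls, the 5M comparison and the counts of relative and undivided enrichment were added after seeing the data. The smallest p of an exact permutation test of 2 against 2 is 0.333, so none was used. Values per library are given for the highest and lowest member of each class by median enrichment, every member without a domain in some library, and the 3 called members with the largest change per comparison. LHCB7 in each comparison, PSBR and the wide CUT&Tag domains were added to these after their values were seen. Members and gene lists were chosen with earlier results of these data known.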

Additional observations from a re-analysis of the deposited data

Results flagged for a closer look

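Domains outside the nuclear genome were called in some libraries. A domain of 154600 bp on the plastid genome, which holds the reaction-center genes of both photosystems, was called in 7 of the 28 libraries, and no comparison above used it. These were the first 0.5M library, the second libraries of 2M, 12 cycles and 14 cycles, both 20K nuclei libraries and the first CUT&Tag library. Its enrichment over IgG was 1.13 to 1.87, and it held 7.35% to 15.4% of the ChIP reads in domains of these libraries. The first CUT&Tag library also had 2 mitochondrial domains, with an enrichment of 1.41 and 1.32. Reads in these domains were left out of the nuclear tests, and their part in any member's value was not tested.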

How the results depend on the processing

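With the start site required inside a domain, 16 members had one in every library (7.78% of all genes), and 25 (17.8%) when a domain needed a log2 ratio to IgG of 1 or more. The start-site rule gave a median member enrichment of 4.89 in 10M and 2.86 in eChIP, and the fold-change rule 3.05 in eChIP and 2.48 in 20K nuclei. Among member regions called, the covered-length offset gave 2 in 1 mg, 20 in eChIP and 0 at 0.5M. Of all regions, 0.794%, 13.6% and 0% were called. Regions covered to at least 80% gave 18, 13, 4 and 0 calls in 1 mg, eChIP, CUT&Tag and 0.5M. Fewer member regions were tested there (18, 15, 8 and 5), and 34.4%, 42.5%, 72.2% and 0.693% of all such regions were called. The limma test of the ChIP to IgG ratio gave 0 in 1 mg, eChIP and 0.5M, among members and among all regions. DESeq2 gave 2 calls at 0.5M (6.37% of all regions). The direction reversed for LHCB2.3 in eChIP with the offset (0.22) and limma (0.71), for PSBS in CUT&Tag by limma (0.10), and for PSBX at 0.5M with the offset (0.43) and limma (0.032). The cause was not tested. Scaling CUT&Tag by total count moved the median of all regions to -0.16, and the offset moved it to -0.59, to -0.23 in eChIP and to 0.33 at 0.5M.

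With each library left out, calls ranged from 31 to 41 in 1 mg, 25 to 42 in eChIP, 7 to 33 in CUT&Tag, 0 to 4 in 20K nuclei and 0 to 1 at 0.5M. In eChIP the lowest, 25, was without the first 10M library, and at 0.5M there were 0 calls without either 10M library. With the 5M libraries as controls, 1 mg gave 38 lower and 1 higher (14.2% and 10.0% of all regions). In eChIP there were 39 and 1 (15.9% and 11.9%), and in CUT&Tag 14 and 7 (20.7% and 23.7%). With the replicate number as a block, 42, 41 and 19 member regions were called in 1 mg, eChIP and CUT&Tag. Of all regions, 28.3%, 26.3% and 43.5% were called there. In 20K nuclei, 0.5M, 14 cycles and 5M, 0, 1, 0 and 0 member regions were called (0.881%, 3.66%, 0.232% and 2.15%). The deviations of same-numbered libraries from their group means correlated at -0.046 to 0.023. With 2 libraries a group, this cannot show whether same-numbered libraries shared a plant pool or batch. At 0.5M, member values rested on as few as 9 reads. Of the recomputed counts and medians, 99 stayed within 1.5 times the count or 1 SD, and 25 did not. With 2 libraries a group, a median with 1 library left out always lies within 1 SD of the group mean. Those medians therefore could not move by this rule. Of the recomputed fold changes, 109 kept direction and call, 14 kept direction but lost the call, and 5 reversed.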
